A study of Mus musculus with 9 samples.

Results

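Glycolysis and its link to oxygen were followed through 40 genes in the midbrain of mouse fetuses. The set was given by name and holds 17 glycolytic enzymes, 4 transporters of glucose and lactate, 4 regulators of glycolytic flux, 14 other hypoxia-inducible genes and the transcription factor Hif1a. All 40 had a row among the 27360 rows of the expression table, and 39 of them were among the 14029 genes tested. Car9 lay below the minimum level of that test. Poly-A selected RNA had been sequenced from C57BL/6 midbrain at E13.5, in 9 libraries of 3 genotypes with 3 libraries each. The floxed control was Gpr161f/f without Cre. The Cre control was Gpr161f/+;Wnt1-Cre. The conditional knockout (cKO) was Gpr161f/f;Wnt1-Cre, whose sample titles spell the gene Gpt161. All 3 genotypes carry a floxed allele of Gpr161, a ciliary receptor that restrains hedgehog signaling. The Wnt1 promoter drives Cre in the dorsal midbrain and the neural crest, the extent of recombination in the dissected tissue was not measured here, and this Cre line is known for ectopic Wnt1. The labels do not say whether a library comes from 1 fetus or a pool, and the p-values below measure only the spread between these libraries.

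Glycolysis turns glucose into pyruvate and yields ATP without oxygen. Lactate dehydrogenase then reduces pyruvate to lactate, and the lactate leaves the cell through monocarboxylate transporters. Several steps are served by paralogous enzymes, one of which is often broadly expressed or growth-associated and another neural. When oxygen is scarce, prolyl hydroxylases no longer mark the HIF-1 alpha protein, the product of Hif1a, for degradation, and the HIF complex binds hypoxia response elements with a 5-base core, ACGTG or GCGTG. Most glycolytic genes and most of the other genes of the set are textbook targets of this factor. Proliferating progenitors of the fetal brain are known for high glycolysis, which declines as neurons differentiate.

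RefSeq start sites gave a promoter window, the 250 bases before the start on GRCm38.p6, for 37 of the 40 genes. Ndrg1, Bnip3l and Slc2a3 had no window. Read on both strands in the first window listed for each gene, at least 1 of the 2 cores stood in 29 of 37 windows (78.4%), against 38.6% of 27025 genes. The core ACGTG was in 51.4% of the members' windows against 16.6%, and GCGTG in 54.1% against 28.2%. The palindrome CACGTG, the E-box of other factors, holds ACGTG on both strands and counts as 2 overlapping matches. The members' windows were also richer in bases G and C, with a median of 62.8% against 52% for all genes, and held a median of 14 CpG against 6, which raises the chance of any core with a CpG. A core was present in 11 of 17 windows of glycolytic enzymes (64.7%) and in 18 of 20 windows of the other members. A match says only that the letters are there. The following windows are shown because their genes mark the ends of the range described below. They are Slc16a3, Ldha and Adm, which rose most in their groups, Pfkp, which fell, and Ldhb, the partner of Ldha that did not pass the test. Capitals mark a core on either strand, and each sequence runs 5′ to 3′ on the gene's own strand.
Slc16a3 promoter: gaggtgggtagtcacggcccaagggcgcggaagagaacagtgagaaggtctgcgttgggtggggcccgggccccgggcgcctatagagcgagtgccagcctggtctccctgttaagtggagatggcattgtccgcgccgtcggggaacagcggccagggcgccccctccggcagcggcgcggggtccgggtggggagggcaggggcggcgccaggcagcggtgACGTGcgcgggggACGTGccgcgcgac
Ldha promoter: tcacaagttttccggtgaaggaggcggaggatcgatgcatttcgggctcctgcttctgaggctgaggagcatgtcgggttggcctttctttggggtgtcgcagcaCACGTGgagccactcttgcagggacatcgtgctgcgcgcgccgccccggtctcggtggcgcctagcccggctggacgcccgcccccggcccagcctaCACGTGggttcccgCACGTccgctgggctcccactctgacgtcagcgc
Adm promoter: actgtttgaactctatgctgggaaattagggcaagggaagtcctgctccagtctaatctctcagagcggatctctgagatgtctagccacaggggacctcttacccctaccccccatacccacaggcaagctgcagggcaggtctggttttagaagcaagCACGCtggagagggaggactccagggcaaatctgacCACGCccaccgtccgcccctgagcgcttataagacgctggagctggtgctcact
Pfkp promoter: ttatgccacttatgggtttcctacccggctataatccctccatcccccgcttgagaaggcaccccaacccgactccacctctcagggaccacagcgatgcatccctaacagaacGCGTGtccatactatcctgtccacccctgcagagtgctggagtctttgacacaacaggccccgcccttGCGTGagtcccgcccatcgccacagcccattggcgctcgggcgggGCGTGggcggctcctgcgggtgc
Ldhb promoter: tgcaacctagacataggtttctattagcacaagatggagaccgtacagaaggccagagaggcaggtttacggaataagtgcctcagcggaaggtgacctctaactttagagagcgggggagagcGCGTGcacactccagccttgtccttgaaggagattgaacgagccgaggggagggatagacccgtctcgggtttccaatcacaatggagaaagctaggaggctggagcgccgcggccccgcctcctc

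The window of Slc16a3 lies at chr11:120948817-120949066 on the plus strand and holds ACGTG at 2 places near the start site. That of Ldha, at chr7:46845554-46845803 on the plus strand, holds CACGTG at 2 places and ACGTG at another. Adm, at chr7:110627407-110627656 on the plus strand, has GCGTG at 2 places. The Pfkp window, at chr13:6648772-6649021 on the minus strand, has GCGTG at 3 places. Ldhb, at chr6:142507958-142508207 on the minus strand, has 1 GCGTG. Cores were thus present before genes that rose, before one that fell and before one that did not pass. The first windows of Gpi1, Aldoa, Tpi1 and Mif, which rose against both controls, held no core. Neither did those of Pkm and Vegfa, which rose against the floxed control alone, Eno2, which fell against it, and Hk1, which did not pass. Other listed windows of Aldoa, Pkm, Vegfa and Hk1 did hold a core. Counting every listed window, 33 of 37 members (89.2%) had a core, against 41.5% of all genes.

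The libraries differed in more than these genes. The data hold 1 value per gene, so the deleted part of Gpr161 could not be looked at. As a whole, Gpr161 did not go down in the libraries labelled cKO. Its log2 values were 11.74 to 11.80 in floxed controls, 11.77 to 11.96 in Cre controls and 11.74 to 11.96 in cKO (limma adjusted p = 0.223 and 0.998), so every direction below belongs to the libraries labelled cKO. All 6 midbrain markers (Otx2, En1, En2, Pax3, Pax7 and Lmx1b) were detected in every library. Hemoglobin and other erythroid markers, with summed linear values of 153000 to 260000 in floxed controls and 184000 to 212000 in Cre controls, reached 239000 to 461000 in cKO, whose replicate 2, the lowest, was below replicate 2 of the floxed control. Markers of mesenchyme and meninges summed to 29500 to 53300, 37000 to 61500 and 63000 to 65400 in the same order. Neuron markers summed to 121000 to 130000, 96300 to 120000 and 85400 to 95700. Choroid plexus markers summed to 2730 to 14500, 854 to 6010 and 1230 to 2600, with a median log2 difference of -1.46 between cKO and floxed control and -1.30 between the controls, and 1 of 4 passed, as lower against the floxed control. In bulk tissue, fewer cells of a type and less RNA per cell cannot be told apart.

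Against the floxed control, 26 of the 39 members tested were higher in cKO and 3 were lower at an adjusted p under 0.05. Over all 14029 genes, 19.5% were higher and 18.8% lower in this comparison. The members' median log2 difference was 0.28, against 0.01 for all genes. Against the Cre control, 17 members were higher and 1 was lower, where 4.86% of all genes were higher and 4.85% lower, with a median difference of 0.23 against 0.01. The same 17 genes were higher against both controls, which held for 4.68% of all genes, and Pfkp was lower against both (4.66% of all genes). In 25 members, all 3 cKO values lay above all 6 control values, against 14.7% of genes tested. Most changes were small. A fold change over 1.5 as well as the adjusted p was met by 6 higher and 1 lower member against the floxed control (1.34% and 1.58% of all genes) and by 2 higher members against the Cre control (0.335%). Both comparisons use the same cKO libraries.

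**Figure D1:**
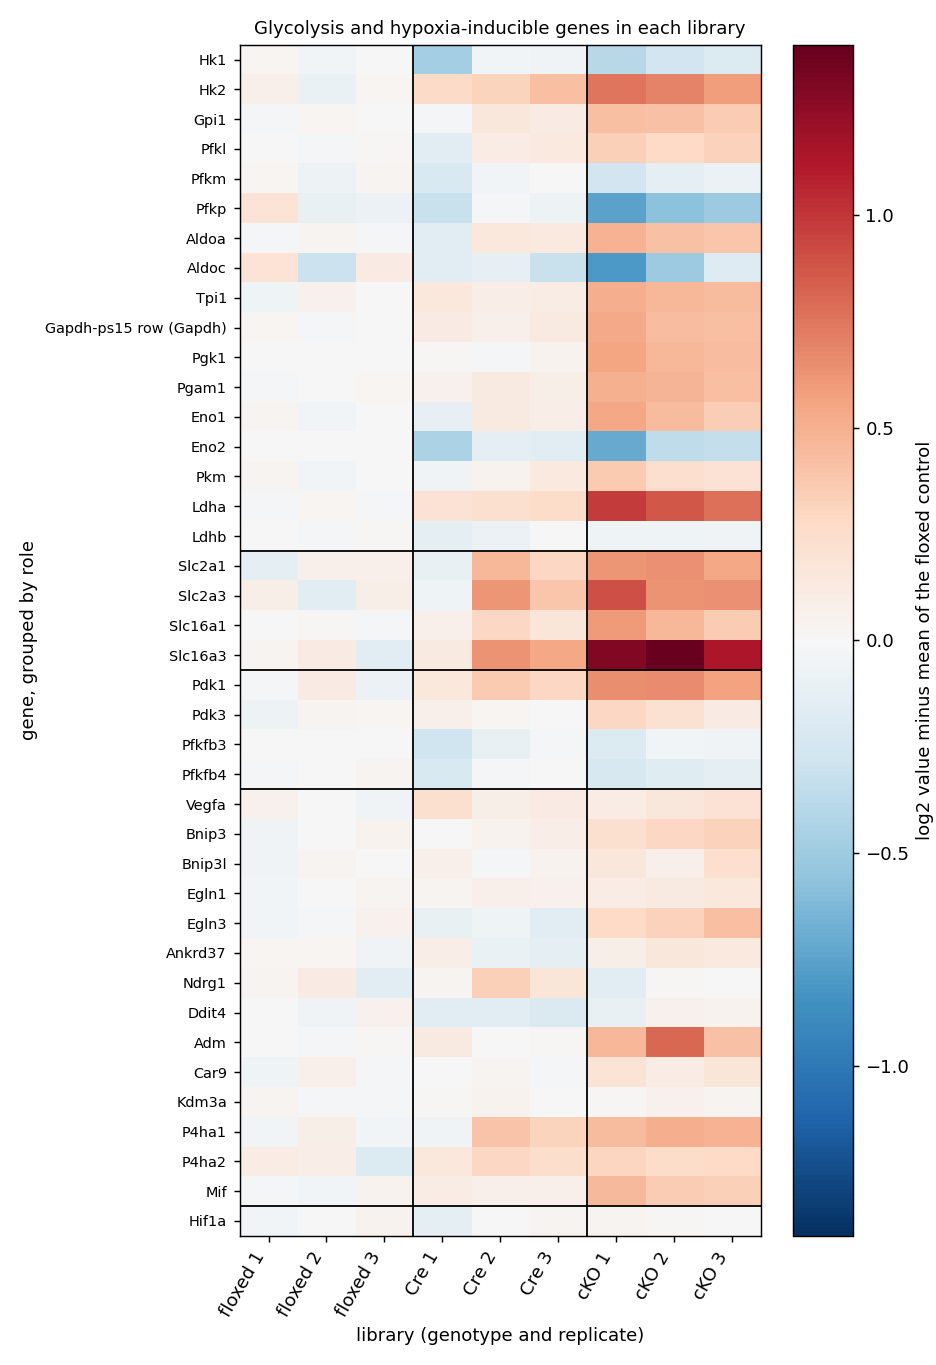
Log2 value of each of the 40 genes in each library minus the mean of the 3 floxed control libraries, with genes as rows grouped by role and the 9 libraries as columns (red higher, blue lower). The cKO columns are red for most rows, Slc16a3 most of all, and the bluest cKO cells are in Pfkp, Aldoc and Eno2, with paler blue in Hk1, Pfkm, Pfkfb4 and others.

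The glycolytic enzymes as a group summed to 130000 to 133000 on the linear scale in floxed controls, 131000 to 141000 in Cre controls and 165000 to 179000 in cKO. The cKO libraries lay above all 6 controls. Of the 17 enzymes, 11 rose and 3 fell relative to the floxed control, with a median log2 difference of 0.39, and 10 rose and 1 fell relative to the Cre control, with a median of 0.31. Of the other 22 members tested, 15 were higher and 0 lower against the floxed control (median 0.24), and 7 higher and 0 lower against the Cre control (median 0.18). All 3 members that passed as lower were enzymes, and Pfkfb4, a regulator, was close to the threshold. No difference between these groups of genes was tested.

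Ldha, the lactate dehydrogenase subunit that favours lactate, rose most among the enzymes. Its log2 values were 12.97, 13.01 and 12.97 in floxed controls, 13.18, 13.21 and 13.24 in Cre controls, and 13.97, 13.86 and 13.76 in cKO, in order of replicate number here and below. The 3 groups did not overlap, with the Cre controls between the others. The cKO mean was 1.84-fold that of the floxed control (log2 difference 0.88 ± 0.051 SE, adjusted p = 3.17e-05) and 1.57-fold that of the Cre control (0.65 ± 0.051, adjusted p = 4.52e-04). Ldhb, the subunit that prevails in aerobic tissue, read 12.28, 12.25 and 12.29 in floxed controls, 12.15, 12.19 and 12.26 in Cre controls, and 12.22, 12.21 and 12.22 in cKO. Its cKO values lay just below the floxed controls and within the Cre controls. The differences were -0.06 (95% interval -0.14 to 0.03, adjusted p = 0.27) and 0.01 (-0.07 to 0.10, adjusted p = 0.827).

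Hexokinase commits glucose to the cell by phosphorylating it. Hk2, the inducible form, read 9.07, 8.91 and 9.03 in floxed controls, 9.27, 9.31 and 9.42 in Cre controls, and 9.75, 9.69 and 9.58 in cKO. These groups were again ordered without overlap. Hk2 was 1.59-fold higher than in the floxed control (log2 difference 0.67 ± 0.065 SE, adjusted p = 2.26e-04) and 1.27-fold higher than in the Cre control (0.34 ± 0.065, adjusted p = 0.0165). Hk1, the form prevalent in the brain, read 11.28, 11.22 and 11.26, then 10.77, 11.22 and 11.20, then 10.87, 10.99 and 11.06 in the same order of groups. Replicate 1 of the Cre control was the lowest of the 9 values, and the cKO values lay below the floxed controls only. The differences of -0.28 and -0.09 did not pass (adjusted p = 0.0569 and 0.591). Gpi1, the isomerase of the next step, rose by 0.39 and 0.31 against the floxed and the Cre control (adjusted p = 5.80e-04 and 0.00892), with cKO values of 12.79 to 12.85 above all controls at 12.40 to 12.59.

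Phosphofructokinase is the main control point of the pathway, and its 3 subunit genes did not move alike. Pfkl, the liver-type subunit, read 11.82, 11.79 and 11.82 in floxed controls, 11.66, 11.91 and 11.95 in Cre controls, and 12.15, 12.09 and 12.13 in cKO, above all controls. It rose by 0.31 and 0.28 against the floxed and the Cre control (adjusted p = 0.00562 and 0.0321). Pfkp, the platelet-type subunit that neurons also express, read 11.20, 10.91 and 10.93, then 10.70, 10.99 and 10.94, then 10.26, 10.44 and 10.50 in cKO. All 3 cKO values were below all 6 controls, and Pfkp was the single member of which this was so. The log2 value fell by 0.61 from the floxed control, 1.53-fold (adjusted p = 0.00164), and by 0.47 from the Cre control, 1.39-fold (adjusted p = 0.0219). Pfkm, the muscle-type subunit, differed by -0.16 and -0.08 (adjusted p = 0.0858 and 0.485).

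Aldolase and enolase each had a paralog that rose and one that fell against the floxed control. Aldoa, the ubiquitous aldolase, rose by 0.43 and 0.38 against the floxed and the Cre control (adjusted p = 0.00181 and 0.0153), with cKO values of 12.81 to 12.92 against 12.28 to 12.57 in controls. Aldoc, the brain form, read 10.32, 9.83 and 10.24 in floxed controls, 9.98, 10.01 and 9.82 in Cre controls, and 9.32, 9.62 and 9.95 in cKO. The cKO range overlapped both controls, and the drop against the floxed control (-0.50 ± 0.16 SE, adjusted p = 0.0316) was among the least certain calls, while the difference from the Cre control was -0.31 (adjusted p = 0.226). Eno1, the widely expressed enolase, rose by 0.44 and 0.41 (adjusted p = 0.00139 and 0.0121). Eno2, known as neuron-specific enolase, read 9.20, 9.21 and 9.21 in floxed controls, 8.76, 9.08 and 9.06 in Cre controls, and 8.50, 8.85 and 8.88 in cKO. Its cKO values lay below the floxed controls and overlapped the Cre controls, whose replicate 1 stood at the cKO level. Eno2 fell by 0.47 from the floxed control (adjusted p = 0.00786), and the difference from the Cre control was -0.23 (adjusted p = 0.193).

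Of the remaining 5 enzymes, 4 rose against both controls and Pkm against the floxed control alone. Tpi1, Pgk1 and Pgam1, which serve the triose and phosphoglycerate steps, were higher by 0.47, 0.48 and 0.46 against the floxed control (adjusted p = 1.72e-04, 1.59e-04 and 1.56e-04). Against the Cre control they were higher by 0.36, 0.47 and 0.37 (adjusted p = 0.00183, 5.77e-04 and 0.00134). Pgk1, the first ATP-forming enzyme, had nearly equal values in the 6 controls, from 13.27 to 13.33, and read 13.84, 13.75 and 13.72 in cKO. Gapdh has no row under its own name. The higher of 2 rows named Gapdh-ps15 was taken for it, with a mean of 14.83 against 2.37 for the lower row. Its place between 10 neighbouring rows fits the identifier order of Gapdh (10 of 10) better than that of the pseudogene (5 of 10), though reads of the gene and its many pseudogene copies cannot be fully separated. This row rose by 0.46 and 0.35 (adjusted p = 2.62e-04 and 0.00462). Pkm, pyruvate kinase, rose by 0.27 over the floxed control (adjusted p = 0.00848) and differed by 0.22 from the Cre control (adjusted p = 0.0524). The table gives 1 value for the gene, so its splice forms were not analysed.

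**Figure D2:**
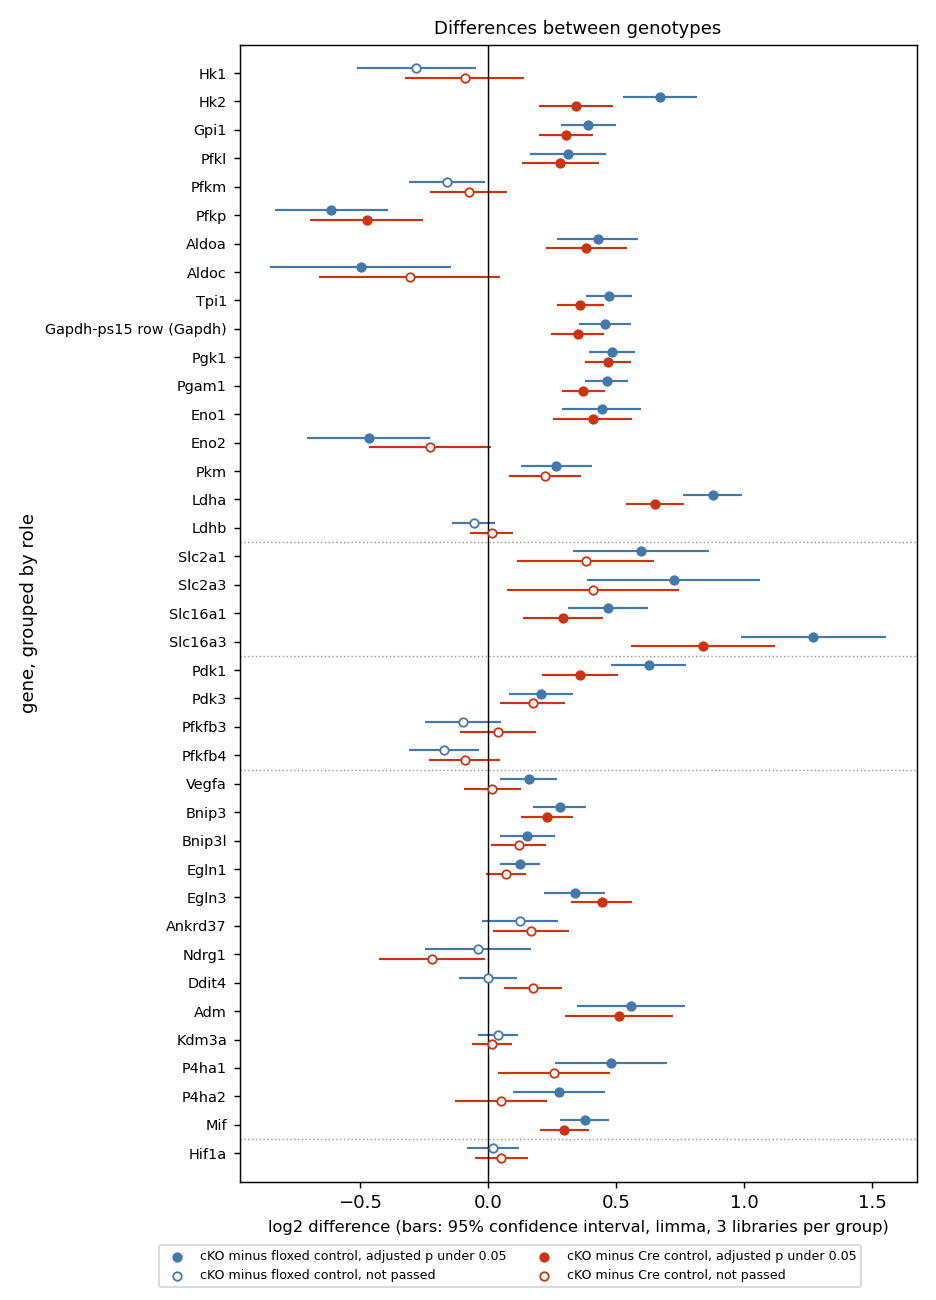
Log2 difference of each member tested, cKO minus floxed control in blue and cKO minus Cre control in red, with 95% confidence intervals from limma; filled points passed the adjusted p. Ldha at 0.88 and Slc16a3 at 1.27 lie farthest right, and Pfkp at -0.61 farthest left.

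Within a library, the difference between the log2 values of paralogs does not depend on a factor common to that library. It is not a ratio of molecules, since transcript lengths differ, and the pairs shown were chosen after the values were seen. Each pair was taken in a chosen order, the first named minus the second, and that order sets whether cKO lies above or below. Of 13 pairs of members computed, cKO lay above all 6 controls in 10 and overlapped them in 3 (P4ha1 and P4ha2, Slc2a3 and Slc2a1, Pfkfb4 and Pfkfb3). No share over other pairs of genes was computed, so these counts have no background. In each of 6 pairs of enzymes, of which 2 share Pfkl (Hk2 and Hk1, Pfkl and Pfkp, Pfkl and Pfkm, Aldoa and Aldoc, Eno1 and Eno2, Ldha and Ldhb), all 3 cKO libraries lay above all 6 controls. The shift of Ldha minus Ldhb was tight, with 0.70, 0.76 and 0.68 in floxed controls, 1.03, 1.02 and 0.97 in Cre controls, and 1.75, 1.65 and 1.54 in cKO. The mean rose from 0.71 ± 0.044 (SD) to 1.01 ± 0.030 and 1.65 ± 0.11. Eno1 minus Eno2 went from 4.40 ± 0.044 in floxed controls to 4.67 ± 0.046 in Cre controls and 5.31 ± 0.30 in cKO. Hk2 minus Hk1 went from -2.25 ± 0.049 to -1.73 ± 0.20 and -1.30 ± 0.18. For Pfkl minus Pfkp, the controls were close together, at 0.80 ± 0.16 and 0.97 ± 0.042, and cKO stood apart at 1.72 ± 0.14. In all 6 enzyme pairs the Cre control mean lay between the other genotypes. Neuron markers, which include no member of the set, were lower in cKO in 6 of 6 genes against the floxed control and 3 of 6 against the Cre control, while 10 of 10 and 4 of 10 cell cycle genes and 4 of 6 and 3 of 6 progenitor markers were higher. Their part in the paralog shifts was not tested.

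**Figure D3:**
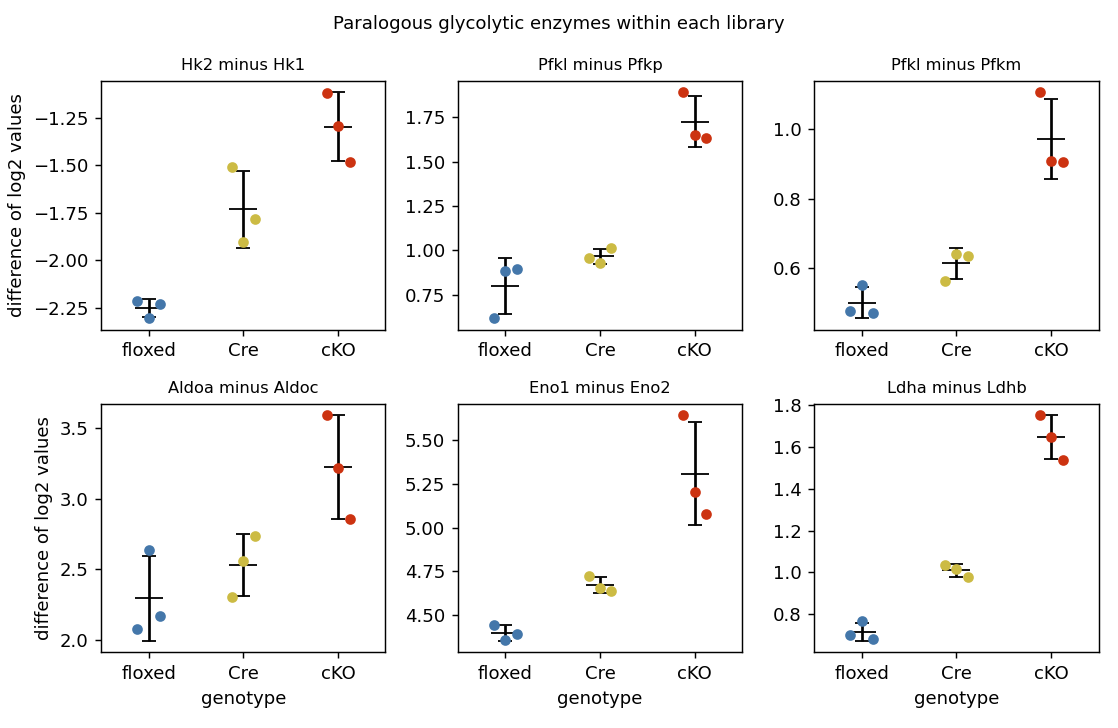
Difference of log2 values between 2 paralogous enzymes in each library, by genotype, for 6 pairs; points are the 3 libraries of a genotype, and the bars show mean and SD. Each panel has its own axis, and the cKO points lie above every control point in all 6 panels.

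The transporters that bring glucose in and take lactate out had the largest median difference of the groups, at 0.66 relative to the floxed and 0.40 relative to the Cre control. Against the floxed control 4 of 4 passed, and 2 of 4 relative to the Cre control. All 4 had cKO values above every control. Slc16a3 encodes MCT4, the exporter typical of cells with high lactate output. It read 8.62, 8.71 and 8.44 in floxed controls, 8.71, 9.22 and 9.13 in Cre controls, and 9.89, 9.98 and 9.72 in cKO. Its cKO mean was 2.41-fold that of the floxed control (1.27 ± 0.13 SE, adjusted p = 2.59e-04) and 1.79-fold that of the Cre control (0.84 ± 0.13, adjusted p = 0.00790), the largest changes in the set. Slc16a1, which encodes MCT1, rose by 0.47 and 0.29 (adjusted p = 0.00122 and 0.0339). Slc16a3 minus Slc16a1 lay between 0.11 and 0.32 in cKO and between -0.73 and -0.23 in the controls.

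The glucose transporters varied more among Cre controls. Slc2a1 (GLUT1) is the transporter of the blood-brain barrier and of progenitors. It read 11.34, 11.54 and 11.54 in floxed controls, 11.37, 11.94 and 11.77 in Cre controls, and 12.09, 12.11 and 12.01 in cKO. Slc2a3 (GLUT3), the high-affinity neuronal transporter, read 9.99, 9.76 and 9.99, then 9.85, 10.53 and 10.30, then 10.82, 10.54 and 10.55. In both genes replicate 1 of the Cre control was at the floxed level and replicate 2 came close to cKO. Both rose against the floxed control (0.60 and 0.72, adjusted p = 0.00411 and 0.00494). Against the Cre control their differences of 0.38 and 0.41 did not pass (adjusted p = 0.0709 and 0.108). Endothelial markers, which could carry Slc2a1, were higher in 4 of 8 genes relative to the floxed and 0 of 8 relative to the Cre control (limma, also 0 at an unadjusted p under 0.05), with summed values of 6470 to 8230, 7020 to 8890 and 8430 to 9040. Their part in the Slc2a1 values was not tested.

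Regulators of flux divided by family. Pdk1 encodes a kinase that blocks pyruvate dehydrogenase inside the mitochondrion. Pdk1 read 9.97, 10.11 and 9.92 in floxed controls, 10.15, 10.36 and 10.29 in Cre controls, and 10.65, 10.66 and 10.57 in cKO. The groups did not overlap, and Pdk1 rose 1.54-fold and 1.28-fold (adjusted p = 3.35e-04 and 0.0152). Pdk3 rose by 0.21 over the floxed control (adjusted p = 0.0164) and differed by 0.17 from the Cre control (adjusted p = 0.0768). Neither gene for the bifunctional enzymes that set fructose 2,6-bisphosphate passed. Pfkfb3 differed by -0.10 and 0.04 (adjusted p = 0.277 and 0.733), and Pfkfb4 by -0.17 and -0.09 (adjusted p = 0.0510 and 0.355). Pfkfb4 passed as lower against the floxed control in 9 of 20 alternatives (adjusted p from 0.0137 to 0.347).

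Among the other hypoxia-inducible genes, 9 of 13 tested were higher against the floxed control (median log2 difference 0.16) and 4 of 13 against the Cre control (median 0.17), none was lower, and none reached a fold change of 1.5. The 4 that passed against both were Adm, Egln3, Mif and Bnip3. Adm, the vasodilator peptide adrenomedullin, read 6.01, 5.99 and 6.03 in floxed controls, 6.14, 6.00 and 6.03 in Cre controls, and 6.47, 6.81 and 6.41 in cKO. Its 6 controls lay close together and the cKO libraries apart, 1.47-fold and 1.43-fold higher (adjusted p = 0.00197 and 0.0152). Adm is the weakest of the tested members in this table, where low values are compressed. Egln3, a prolyl hydroxylase that is itself induced by HIF, read 9.16, 9.18 and 9.25, then 9.10, 9.14 and 9.04, then 9.48, 9.51 and 9.61. Its Cre controls were all below its floxed controls, and it rose by 0.34 over the floxed and 0.44 over the Cre controls (adjusted p = 0.00150 and 0.00270). Mif, a cytokine, rose by 0.38 and 0.30 (adjusted p = 4.45e-04 and 0.00676), and Bnip3, a mitophagy receptor, by 0.28 and 0.23 (adjusted p = 0.00175 and 0.0191).

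Another 5 genes passed against the floxed control alone. They were P4ha1 and P4ha2, subunits of the collagen prolyl hydroxylase (0.48 and 0.28, adjusted p = 0.00432 and 0.0217), Vegfa, the main angiogenic factor (0.16, adjusted p = 0.0297), Bnip3l (0.15, adjusted p = 0.0286) and Egln1, the main HIF prolyl hydroxylase (0.13, adjusted p = 0.0185). Bnip3l read 12.62, 12.53 and 12.70 in cKO, where the erythroid markers summed to 413000, 239000 and 461000. With the erythroid markers as a covariate its difference was 0.044 and did not pass (adjusted p = 0.687, with a range of 0.0179 to 0.687 over 20 alternatives). In that fit the calls over all genes fell from 5380 to 518. The part of erythroid cells in the Bnip3l values was not tested. Vegfa, often used as a readout of hypoxia, read 10.91, 10.85 and 10.80 in floxed controls, 11.08, 10.94 and 10.97 in Cre controls, and 10.96, 11.02 and 11.06 in cKO. Its cKO values overlapped the Cre controls, from which the mean differed by 0.02 (95% interval -0.09 to 0.13, adjusted p = 0.843). P4ha1 in the Cre control ranged from 10.16, at the floxed level, to 10.61, near the 10.65 to 10.71 of cKO. Collagen-rich mesenchyme and meninges also express the P4ha genes, and 7 of 8 of their markers were higher against the floxed control. Relative to the Cre control 0 of 8 passed (limma), and 2 had an unadjusted p under 0.05. With these markers as a covariate, P4ha1 differed from the floxed control by 0.22 and P4ha2 by 0.075, and neither passed (adjusted p = 0.197 and 0.629, with ranges of 1.17e-04 to 0.197 and 0.017 to 0.629 over 20 alternatives). The calls over all genes in this comparison also went from 5380 to 2077 with that covariate. The part of these cells in the P4ha values was not tested.

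Several common hypoxia genes did not pass in either comparison. Ankrd37 differed by 0.13 and 0.17 (adjusted p = 0.163 and 0.128). Ndrg1 differed by -0.04 and -0.22 (adjusted p = 0.757 and 0.149), with cKO values of 7.75 to 7.92 below the Cre controls at 7.94 to 8.24. For Ddit4, an inhibitor of mTOR signaling, the difference was 0.00 from the floxed control and 0.18 from the Cre control (adjusted p = 0.985 and 0.0554). Kdm3a, a histone demethylase, differed by 0.04 and 0.02 (adjusted p = 0.402 and 0.774). Car9, the carbonic anhydrase that is among the most specific markers of HIF activity, was not tested. Its cKO values, up to 4.09, lay above all 6 controls at 3.84 to 3.96, near the bottom of the scale where the table is shrunken.

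The transcript of Hif1a itself stayed within the spread of the controls. It read 12.33, 12.36 and 12.41 in floxed controls, 12.24, 12.36 and 12.40 in Cre controls, and 12.41, 12.38 and 12.37 in cKO. The differences were 0.02 (95% interval -0.08 to 0.12, adjusted p = 0.764) and 0.05 (-0.05 to 0.15, adjusted p = 0.485). HIF is regulated mainly through protein stability, which was not measured here. Of 12 further genes of the HIF pathway that were tested, among them Epas1, Arnt, Vhl and Hif1an, Elob was higher and Arnt2 lower against the floxed control (0.16 and -0.26, adjusted p = 0.0197 and 0.0142), and 0 passed against the Cre control, where 1 had an unadjusted p under 0.05.

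A wider list of 35 tested hypoxia-inducible genes from outside the set gave 17 higher and 3 lower against the floxed control and 6 higher and 1 lower against the Cre control, with medians of 0.17 and 0.12. Over all genes tested, the shares were 19.5% higher and 18.8% lower in the first comparison and 4.86% and 4.85% in the second. Ak4, an adenylate kinase, rose by 0.62 and 0.32 (adjusted p = 7.02e-04 and 0.0396). P4hb, protein disulfide isomerase, rose by 0.36 and 0.22 (adjusted p = 0.00124 and 0.0364). Loxl2, which crosslinks collagen, rose by 0.94 and 0.57 (adjusted p = 0.00128 and 0.0375). Nrn1, a neuronal growth factor of the neurite membrane, fell by 0.38 and 0.28 (adjusted p = 5.80e-04 and 0.0123). The 6 that were higher against both controls also included Fam162a, Cxcr4 and Bhlhe40.

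**Figure D4:**
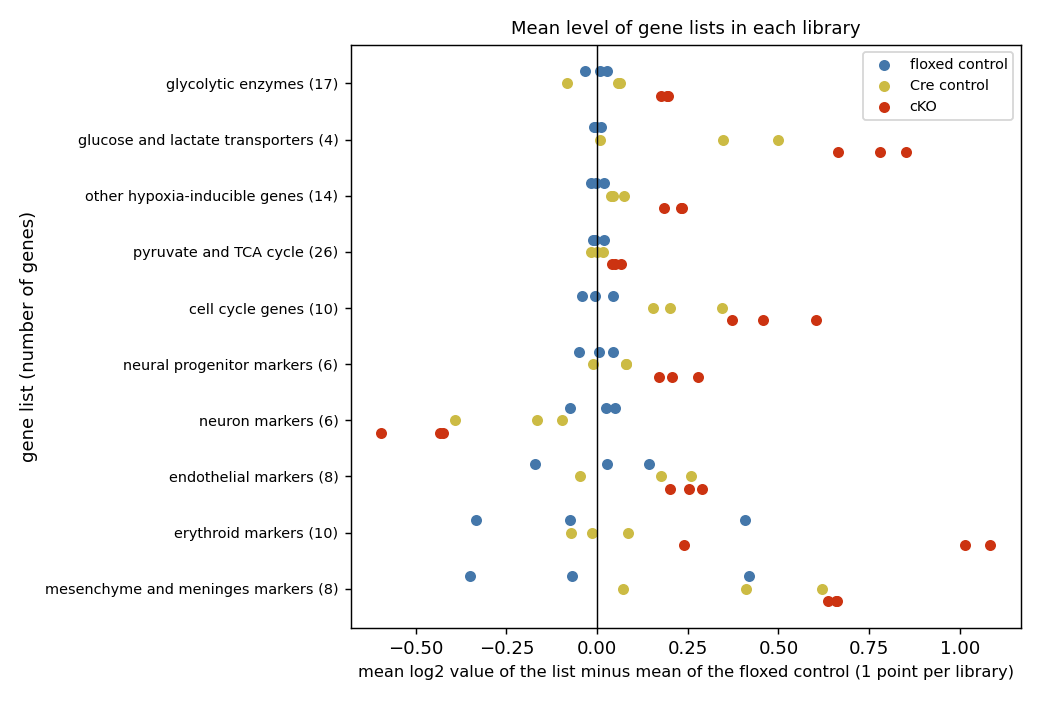
Mean log2 value of a gene list in each library minus the mean of the 3 floxed control libraries, for 3 groups of members and 7 lists of cell types or processes; each point is a library. The cKO points lie above all control points in the 3 groups of members. They also do so in the pyruvate and TCA cycle, cell cycle, progenitor and mesenchyme lists, and lie below them in the neuron list. The endothelial and erythroid lists overlap, and the erythroid and mesenchyme lists spread widely among the floxed controls.

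The Cre control and the floxed control were compared for what Cre and the loss of 1 Gpr161 allele go with. Of the 39 members 0 passed (limma), where 0.0570% of all genes did. At an unadjusted p under 0.05 there were 13 members, against 17.5% of all genes, and 27 of 39 differences were positive with a median of 0.05. The Cre controls lay above the floxed controls without overlap in 11 members and below them in 5. Over the 14029 genes tested, this held for 1508 and 1691. The 11 included Slc16a3, by a gap of 0.0045, Hk2, Pdk1 and Ldha. Their differences of 0.43, 0.33, 0.27 and 0.22 did not pass (adjusted p = 0.174, 0.129, 0.145 and 0.145). Slc16a3, Hk2, Pdk1 and Ldha sat between the floxed control and cKO, while Pgk1 (0.02), Eno1 (0.03), Adm (0.05) and Pfkl (0.03) sat at the floxed level. The comparison with the Cre control keeps Cre in both arms, whereas that with the floxed control contains Cre and the loss of Gpr161 together, which cannot be told apart there.

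Replicate 1 of the Cre control stood apart in part of the set. It was the lowest of the 3 Cre controls in 13 of 17 glycolytic enzymes and 13 of the other 23 members, against 45.5% of all genes tested. Its neuron markers summed to 96300, near the cKO range, and its mesenchyme markers to 37000, the lowest of the Cre controls. Its Y-linked genes summed to 1070, against 4200 and 4150 in the other Cre controls. Replicate 2 of the floxed control was also low in these, at 918 against 4190 and 2980. Without replicate 1 of the Cre control, 14 enzymes and 10 other members passed against the Cre control, while the calls over all genes went from 1363 to 3292. Hk1 and Eno2 were then lower in cKO (adjusted p = 0.0142 and 0.042, with ranges of 0.0142 to 0.979 and 0.042 to 0.829 over 20 alternatives). Between the controls, Slc16a3 and P4ha1 then passed as higher with Cre (adjusted p = 0.045 and 0.0317, with ranges of 0.045 to 0.491 and 0.0317 to 0.661).

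Leaving out each of the 9 libraries in turn kept 23 of the 29 calls against the floxed control and 9 of the 18 against the Cre control. Those kept in both were Gpi1, Tpi1, the Gapdh row, Pgk1, Pgam1, Ldha, Slc16a3, Egln3 and Mif. Against the floxed control, Aldoc was lost without replicate 1 or 3 of the floxed control or 1 or 2 of cKO (adjusted p up to 0.117), Vegfa without 2 or 3 of the floxed control or 2 or 3 of cKO (up to 0.11), and Bnip3l without 1 or 3 of the floxed control or 1 or 3 of cKO (up to 0.106). Egln1 was lost without 1 or 2 of the floxed control or 2 or 3 of cKO (up to 0.0764), P4ha2 without 3 of the floxed control or 1 or 3 of cKO (up to 0.0672), and Pdk3 without 1 of the floxed control or 1 of cKO (up to 0.0665). These are the members with small differences and Aldoc, whose libraries spread widely.

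Against the Cre control, Pfkl was lost without replicate 1 or 3 of the floxed control, which share the estimate of the spread, or any 1 cKO library (adjusted p up to 0.118). Slc16a1 was lost without 1 or 3 of the floxed control, 3 of the Cre control or 1 or 2 of cKO (up to 0.127), and Pfkp without 2 or 3 of the Cre control or 1 or 2 of cKO (up to 0.0893). Pdk1 was lost without 3 of the Cre control or 1 or 2 of cKO (up to 0.0624), Bnip3 without 3 of the Cre control or 2 of cKO (up to 0.0605), and Hk2 without 1 or 2 of cKO (up to 0.0681). Aldoa and Eno1 were lost without 1 of cKO (0.0653 and 0.0502), and Adm without 3 of the Cre control (0.056). The signs did not change in any of these omissions. Without replicate 1 of cKO, 6 of the 17 enzymes passed against the Cre control, and without replicate 3 of the Cre control, 3 of the other members did, with 237 and 246 calls over all genes in place of 1363. With the mean of the erythroid markers as a covariate, the median difference of the enzymes stayed at 0.40 and 0.31, while 8 and 1 enzymes passed against the floxed and the Cre control. Ldha was the enzyme that passed against both. In that fit the calls over all genes went from 5380 to 518 and from 1363 to 13. With the mesenchyme and meninges markers as a covariate, the enzymes' medians were 0.27 and 0.265, with 9 and 10 passing. The calls over all genes were then 2077 and 503. The part of these cell types in the members' values was not tested further. Of 9 genes tested that respond to the stress of dissection, 4 were higher and 1 lower against the floxed control (19.5% and 18.8% of all genes). Against the Cre control 2 were higher, Ier2 and Jun (4.86% of all genes). The part of these stress genes was not tested.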

How the data were processed

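Poly-A RNA libraries (NEBNext Ultra, Trizol and column extraction) of dissected midbrain were sequenced for 9 samples. The authors deposited 1 table of log2 values, normalized between libraries and shrunk at low values; the transformation is not given in the sources used here. The submitters' processing notes list FastQC 0.10.1, kallisto 0.46.1, DESeq2 and mm10. Read depth is unknown, since no counts are in the table; sums of the linear values were 26610000 to 27500000 per library, so no counting interval is given.

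Named rows with at least 1 cpm on the linear values (4.73 to 4.78 on the log2 scale) in at least 3 libraries were kept; 5764 rows had no name and 118 repeats of a name were dropped, which left 14029 genes. Groups follow the sample titles. A mean per genotype was fitted to all 9 libraries with limma 3.58.1 in R 4.3.3 (eBayes with a trend, two-sided, Benjamini-Hochberg over all genes). A gene passed at an adjusted p under 0.05; the study's fold limit of 1.5 was counted beside it. An exact permutation of 3 against 3 cannot give a p under 0.1 and was not used. The fit was tested on simulated data. Alternatives changed the filter, threshold, libraries, block, scaling and covariates, and omitted each library; covariates of erythroid and of mesenchyme markers and a correction for GC content and length (known for 99.1% of genes) were added after seeing the data. All 40 members are named; for other lists, counts and up to 4 genes with the smallest p are given, and Fam162a, Cxcr4, Bhlhe40, Jun and the HIF pathway genes named without a value were chosen after their values were seen. Members and lists were chosen with earlier results of these data known. Promoter windows are from RefSeq.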

Additional observations from a re-analysis of the deposited data

How the results depend on the processing

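Limits are the 3 libraries per genotype and a table without counts, so that depth cannot be judged and low genes are compressed. The signs of all 29 members called against the floxed control and of all 18 called against the Cre control held under every alternative run. With the fold limit of 1.5, 3 enzymes and 4 other members passed in cKO minus floxed control, and 1 and 1 in cKO minus Cre control. With erythroid markers as a covariate these counts were 8 and 4, and 1 and 0; with mesenchyme and meninges markers they were 9 and 7 against the floxed control. When 1 library was left out, the enzymes passing were 13 to 16 (floxed control) and 6 to 14 (Cre control), the other members 11 to 16 and 3 to 10, and the other members between the controls 0 to 2, the 2 being found without replicate 1 of the Cre control. Each omission leaves fewer samples; the cause of the other shifts was not tested.

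With the replicate number as a block, 16 enzymes and 16 other members passed in cKO minus floxed control, and 11 and 8 in cKO minus Cre control. Hk1, Pfkm and Pfkfb4 (floxed control) and Slc2a1 (Cre control) then passed. Deviations from the group means correlated between -0.027 and 0.26 for libraries that share a number and between -0.282 and 0.161 for others, and not every library correlated best with its own number, so the numbers do not establish a pairing.

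Values that changed sign were close to 0 and not called. Over the omissions of 1 library, cKO minus floxed control ranged from -0.12 to 0.015 for Ndrg1, from -0.0295 to 0.055 for Ddit4 and from -0.0003 to 0.043 for Hif1a. The range of cKO minus Cre control was -0.011 to 0.046 for Ldhb, -0.035 to 0.095 for Pfkfb3 and -0.013 to 0.060 for Vegfa. That of Cre control minus floxed control was -0.026 to 0.12 for Pfkl, -0.0056 to 0.14 for Aldoa, -0.013 to 0.11 for Eno1, -0.0014 to 0.093 for Pkm, -0.0007 to 0.053 for Pdk3 and -0.067 to 0.014 for Hif1a. Ddit4 (floxed control) was at -0.014 with libraries centred on their medians, -0.0033 for Ddit4 with Y-linked genes as a covariate and -0.062 after the correction for GC content and length. That correction put Ldhb and Vegfa (Cre control) at -0.052 and -0.0052, and Pgk1 between the controls at -0.014. The mesenchyme covariate put Hif1a (floxed control) at -0.0093, P4ha2 (Cre control) at -0.038, and Pfkl, Aldoa and Eno1 between the controls at -0.023, -0.043 and -0.012. The erythroid covariate put Pfkm (Cre control) at 0.0087.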

Other observations

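Of 26 genes for pyruvate oxidation and the TCA cycle, 6 rose and 0 fell relative to the floxed control, and 3 rose and 0 fell relative to the Cre control. Over all genes tested, 19.5% rose and 18.8% fell in the first comparison and 4.86% and 4.85% in the second. The list's median log2 differences were 0.04 and 0.06, against 0.01 over all genes tested. Suclg2, a subunit of succinyl-CoA ligase, rose by 0.42 and 0.19 (limma adjusted p = 5.88e-04 and 0.0480), and Pdha1, a subunit of the pyruvate dehydrogenase that Pdk1 inhibits, by 0.17 and 0.13 (adjusted p = 0.00386 and 0.0423). Fh1, fumarate hydratase, was higher against the floxed control (0.27, adjusted p = 0.00242) and differed by 0.15 from the Cre control (adjusted p = 0.0729). Of 7 pentose phosphate genes, 4 were higher against the floxed control, led by Pgls (0.17, adjusted p = 0.00600). In cKO minus Cre control 0 passed and 4 had an unadjusted p under 0.05. The difference between these lists and the glycolytic enzymes was not tested.

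Glycolytic isoforms outside the set are largely those of liver, muscle and germ cells. Against the floxed control, 1 was higher and 4 were lower of 12 tested, where 19.5% of all genes were higher and 18.8% lower. None of these isoforms, 0 of 12, passed in cKO minus Cre control, where 4 had an unadjusted p under 0.05. Adpgk, an ADP-dependent glucokinase, was the higher one (0.25, adjusted p = 0.00407), and Pfkfb2, another gene for the bifunctional enzyme, had the largest drop (-0.33, adjusted p = 0.00481).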
